A study of Mus musculus with 2 samples.

Results

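The ADAM, ADAMTS and MMP genes encode zinc-dependent metalloproteases that work at the cell surface and in the extracellular matrix, and the TIMP genes encode their tissue inhibitors. They were taken by symbol (Adam, Adamts, Adamtsl or Mmp with a number, and Timp1 to Timp4), which gave 84 of the 24062 genes counted. The 84 were 33 ADAM, 19 ADAMTS, 5 ADAMTS-like (ADAMTSL), 23 MMP and 4 TIMP genes. They were measured in 2 RNA-seq libraries of C57BL6 mouse embryos at embryonic day 11. Both libraries came from aortic cells with the endothelial and blood marker CD31 and intermediate KIT, a stem cell factor receptor, which the labels describe as haematopoietic progenitors. The cells were sorted on Gata2Venus, a transgenic fluorescent reporter of the blood transcription factor Gata2, into a Gata2Venus-negative group (1 library, 10135400 counts in genes) and a Gata2Venus-positive group (1 library, 9715131 counts). The series concerns Gata2-independent progenitors, and the comparison asks how cells without the reporter differ from cells with it. The number of embryos behind each library is not given in the sources used here. With 1 library in each group, library and reporter status cannot be told apart, no p-value is given, and the 95% intervals below cover counting error only.

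As background, ADAM proteins are mostly anchored in the membrane and shed the outer parts of receptors, ligands and adhesion molecules. ADAMTS proteins are secreted and cut matrix proteoglycans and procollagens, and ADAMTS-like proteins share their ancillary domains but have no protease domain. MMPs degrade collagens and other matrix proteins, either as secreted enzymes or as membrane-type enzymes, and TIMPs block their active site. In the embryonic aorta, blood progenitors leave an endothelial layer that lies on mesenchyme and matrix, the surroundings in which these enzymes act.

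A level is given in CPM, counts relative to the library's scaled gene total, and a ratio as the negative over the positive library. A gene was past the rule of size when its higher value reached 10 CPM and 50 counts and even the near end of its ratio's interval was more than 2-fold from equal. Of the 84 genes 41 had 0 counts in both libraries (48.8%, beside 42.4% of all genes counted). Another 31 had counts in both, 6 in the negative library only and 6 in the positive library only. In the negative library 47 of the 84 members and 11670 of the 24062 genes were at 0, and in the positive library 47 and 11353. The floor for a gene at 0, set by 3 counts, was 0.288 CPM for the negative library and 0.317 CPM for the positive. The filter of 10 CPM and 50 counts was met by 33 of the 84, and 17 of these were past the rule.

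Of those 33 genes, 13 (39.4%) were higher in the negative library, where 15.2% of the 10381 genes past the same filter were, and 4 (12.1%) were lower, where 14.9% were. A gene enters this filter through the library where it is higher, so genes seen in a single library always enter it as changed. When genes with 3 or fewer counts in either library were left out, 7 of 24 were higher and 1 was lower, beside 12.5% and 11.8% of all genes. Summed over both libraries, 41 members and 12544 genes of the table had 20 counts or more. The median log2 ratio was 0.80 for these 41 members and −0.01 for these 12544 genes. Both directions were filled mainly by ADAMTS genes (7 higher and 4 lower of 14), and the other genes past the rule were 5 of 7 MMP genes and 1 of 7 ADAM genes, all higher in the negative library.

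**Figure D1:**
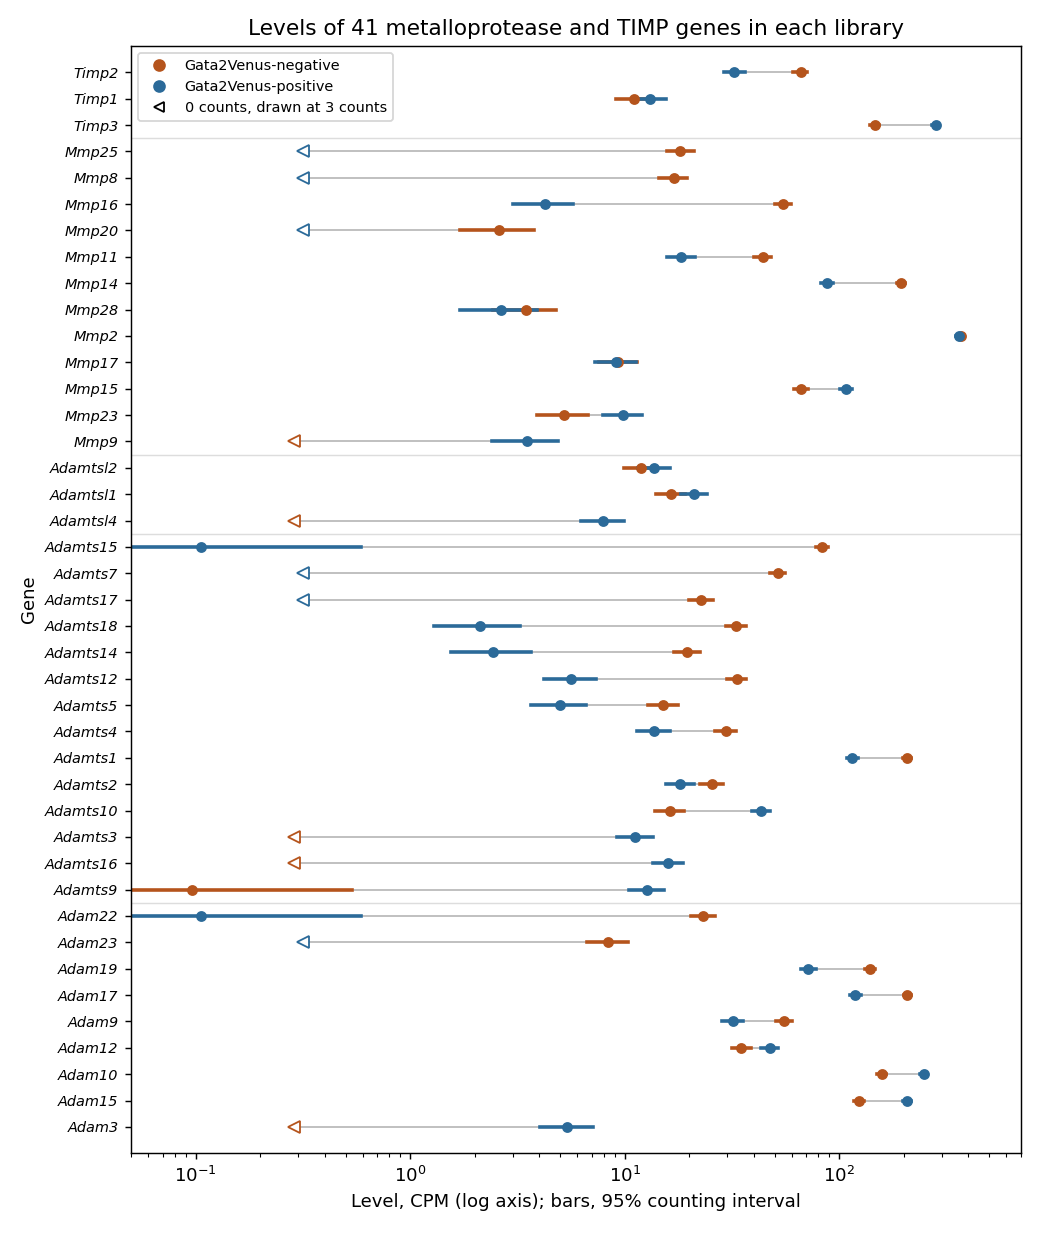
Level of each of the 41 members with at least 20 counts, in CPM on a log axis, in the Gata2Venus-negative (orange) and Gata2Venus-positive (blue) library, grouped by family, with 95% counting intervals. Open triangles are 0 counts, drawn at 3 counts, and Mmp2, at 371 and 361 CPM, is the member with the highest CPM in both libraries.

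The sequences upstream of the MMP genes are shown because 10 MMP genes lie side by side and only 2 of them gave counts. These 10 genes span 427 kb of chromosome 9 (7272514 to 7699585, mm10). Mmp8, the collagenase of neutrophils, had 176 negative and 0 positive counts, and Mmp20, the enamel protease, had 27 and 0. The other genes of the cluster, Mmp13, Mmp12, Mmp1b, Mmp3, Mmp1a, Mmp10, Mmp27 and Mmp7, had 0 counts in both. RefSeq windows (GRCm38.p6) of 250 bases before the gene start were found for 53 of the 84 members, in 58 windows. They were searched on both strands for the TATA box TATAAA, the AP-1 motif TGANTCA, the GATA motif AGATAA, the RUNX motif TGTGGT, the SP1 motif GGGCGG and the ETS motif AGGAAG. The AP-1 motif was found for 8 of the 10 cluster genes and the TATA box for 7, against 6.75% and 12.4% of the 32851 windows in the table. SP1 motifs were found for 0 of the 10 and for 24 of the other 43 members with a window, where 32.7% of all windows held them. Below are Mmp10 (chr9:7502092-7502341, plus strand; 0 counts in both libraries), Mmp20 (chr9:7627981-7628230, plus strand), Mmp8 (chr9:7558179-7558428, plus strand) and, from outside the cluster, Mmp14 (chr14:54431348-54431597, plus strand), which had 2014 and 830 counts. Capitals mark matches to any of the 6 motifs, and no match overlaps another in these 4 windows.
Mmp10: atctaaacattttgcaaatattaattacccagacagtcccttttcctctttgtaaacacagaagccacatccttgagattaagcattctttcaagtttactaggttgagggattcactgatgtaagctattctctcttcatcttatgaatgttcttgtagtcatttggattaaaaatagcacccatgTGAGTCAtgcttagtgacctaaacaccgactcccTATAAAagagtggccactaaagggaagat
Mmp20: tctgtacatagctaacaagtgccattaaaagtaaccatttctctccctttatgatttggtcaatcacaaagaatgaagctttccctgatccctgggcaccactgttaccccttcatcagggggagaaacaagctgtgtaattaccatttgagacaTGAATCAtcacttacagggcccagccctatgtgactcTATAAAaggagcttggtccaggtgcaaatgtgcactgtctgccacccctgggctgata
Mmp8: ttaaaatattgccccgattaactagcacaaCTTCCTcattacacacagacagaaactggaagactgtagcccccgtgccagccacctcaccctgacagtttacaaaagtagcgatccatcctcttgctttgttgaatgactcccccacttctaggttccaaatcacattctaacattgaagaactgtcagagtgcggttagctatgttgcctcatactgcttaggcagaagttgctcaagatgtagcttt
Mmp14: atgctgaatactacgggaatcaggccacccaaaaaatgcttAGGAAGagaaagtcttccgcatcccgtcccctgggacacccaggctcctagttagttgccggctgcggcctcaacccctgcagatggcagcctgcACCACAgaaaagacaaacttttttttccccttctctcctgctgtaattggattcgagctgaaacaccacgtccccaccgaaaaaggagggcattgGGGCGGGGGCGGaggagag
The Mmp10 window holds an AP-1 match that starts at −63 and a TATA box at −29 from the gene start, and the Mmp20 window holds them at −95 and −58. The Mmp8 window holds neither and has a single ETS match at −220. The Mmp14 window has ETS, RUNX and 2 adjoining SP1 matches. Windows were found for 9 of the 13 members that were higher in the negative library and 2 of the 4 that were lower, and none of these 11 held a TATA box, AP-1 or GATA match. The GATA motif was found for 3 members in all, Mmp24, Mmp27 and Mmp7, each with 0 counts in both libraries, and in 9.99% of all windows. These are matches of letters and say nothing on which factors bind.

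Adam9, Adam10, Adam12, Adam15, Adam17 and Adam19, which encode membrane proteases, each had 301 counts or more in both libraries, and none of these 6 was past the rule. Adam10, which cleaves Notch receptors and VE-cadherin, had 1642 negative and 2339 positive counts, or 158 and 247 CPM (log2 ratio −0.65, interval −0.74 to −0.56). Adam17, which releases tumour necrosis factor and ligands of the EGF receptor, had 2166 and 1121 counts, or 208 and 119 CPM (log2 ratio 0.81, interval 0.71 to 0.92). The best-known pair of sheddases thus lay on opposite sides of equal expression, and each interval stayed within 2-fold. Adam15, an ADAM with an integrin-binding motif, had 1286 and 1956 counts (log2 ratio −0.74, interval −0.85 to −0.64). Adam19, also called meltrin beta and needed for heart development, had 1451 and 680 counts (0.95, interval 0.82 to 1.09). Adam9 had 575 and 301 counts (0.80) and Adam12, meltrin alpha, had 364 and 449 (−0.44).

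The ADAM genes seen almost only in a single library encode proteins known to lack protease activity. Adam22 (chromosome 5, 8072352 to 8368160), a catalytically inactive receptor for LGI proteins in the nervous system, had 242 negative counts and 1 positive count, 23.2 and 0.106 CPM (log2 ratio 7.78, interval 5.29 to 13.09). Adam23, its inactive relative, had 87 and 0 counts and stayed under the filter at 8.36 CPM. It was 26.3-fold higher in the negative library with its 0 set to the floor (log2 ratio 4.72, interval from 4.39). Adam3, a sperm surface protein, went the other way with 0 and 51 counts and was also under the filter. Adam8, found on myeloid cells, had 1 count in each library. The other 23 ADAM genes had 0 counts in both. They were Adam1a, Adam1b, Adam2, Adam4, Adam5, Adam6a, Adam6b, Adam7, Adam11, Adam18, Adam20, Adam21, Adam24, Adam25, Adam26a, Adam26b, Adam28, Adam29, Adam30, Adam32, Adam33, Adam34 and Adam39, many of them known from testis. Several are close copies of each other, and alignments that were not unique were not assigned to genes.

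The ADAMTS proteases that cleave proteoglycans such as versican were led by Adamts1 in both libraries. Adamts1 had 2145 and 1088 counts, or 206 and 115 CPM (log2 ratio 0.84, interval 0.73 to 0.95), and was not past the rule. Its neighbour Adamts5, 53.1 kb away on chromosome 16 (85856173 to 85901828), had 157 and 47 counts and was 3.03-fold above in the negative one (log2 ratio 1.60, interval 1.12 to 2.10). Adamts4 had 309 and 129 counts, and its interval reached below 2-fold (log2 ratio 1.12, interval 0.82 to 1.43). Each of these 3 genes had its higher value in the negative library.

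The member with the largest fitted ratio, Adamts15, belongs to the same group of proteoglycan-cleaving enzymes. This rank rests on setting a 0, but not a 1, to 3 counts. With 0.5 counts added instead, Adamts7, at 0 in the positive library, had a log2 ratio of 9.93 and Adamts15 of 9.04. Adamts15 (chromosome 9, 30899155 to 30922452) had 867 negative counts and 1 positive count, 83.3 and 0.106 CPM (log2 ratio 9.62, interval 7.14 to 14.93). Adamts8, which lies 20.1 kb from it, had 0 and 8 counts and was under the filter. Adamts9 (chromosome 6, 92772699 to 92943492), a versican-cleaving enzyme with a GON domain, had 1 negative and 120 positive counts (log2 ratio −7.05, interval −12.36 to −4.54). Its close relative Adamts20 had 0 counts in both. Versican itself (Vcan) had 2081 and 209 counts, 199.9 and 22.1 CPM, and was past the rule, higher in the negative library (log2 ratio 3.18). Aggrecan (Acan), brevican (Bcan) and neurocan (Ncan), other proteoglycan substrates of these enzymes, had 0 counts in both libraries.

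The procollagen N-proteinases, which trim the amino ends of fibrillar procollagens, were split. Adamts14 (chromosome 10, 61197112 to 61273438) had 203 and 23 counts and was 8.02-fold above in the negative one (log2 ratio 3.003, interval 2.38 to 3.69). Adamts3 (chromosome 5, 89677087 to 89883334), which also processes the lymphatic growth factor VEGF-C, had 0 negative and 106 positive counts. With the 0 set to 3 counts it was 38.9-fold lower (log2 ratio −5.28, interval up to −4.96). Adamts2 had 265 and 172 counts, a difference inside the rule (log2 ratio 0.49, interval 0.20 to 0.77). Of the fibrillar collagen genes, Col3a1 was 2.48-fold higher in the negative library (3249 and 1310 CPM), and Col1a1 (1837 and 1453 CPM) and Col1a2 (768 and 840 CPM) were not past the rule.

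Both ADAMTS proteases that cleave cartilage oligomeric matrix protein were higher in the negative library. Adamts7 (chromosome 9, 90163069 to 90208071) had 537 negative and 0 positive counts. With the 0 set to 3 counts it was 163-fold higher (log2 ratio 7.35, interval from 7.04). Adamts12 (chromosome 15, 11064790 to 11349231) had 346 and 53 counts and was 5.93-fold higher (log2 ratio 2.57, interval 2.15 to 3.01). Their named substrate, Comp, had 0 counts in both libraries.

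The remaining ADAMTS genes past the rule were split between the directions. Adamts16 (chromosome 13, 70727802 to 70841811) had 0 and 151 counts. It was 55.4-fold lower in the negative library with its 0 set to the floor (log2 ratio −5.79, interval up to −5.48). Adamts18 (chromosome 8, 113697126 to 113848738), its nearest relative, had 345 and 20 counts and was 15.7-fold higher in that library (log2 ratio 3.97, interval 3.32 to 4.70). Adamts17 (chromosome 7, 66839735 to 67153171) had 237 and 0 counts. With the 0 set to 3 counts it was 71.8-fold higher in the negative library (log2 ratio 6.17, interval from 5.86). Adamts10 (chromosome 17, 33524204 to 33553782), like Adamts17 linked to fibrillin microfibrils, had 169 and 409 counts and was 2.66-fold lower (log2 ratio −1.41, interval −1.68 to −1.15). Adamts10 was the only one of the 4 members on the lower side with more than 3 counts in both libraries. Adamts6, Adamts13, the protease of von Willebrand factor, and Adamts19 had 0 counts in both libraries.

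The ADAMTS-like genes were low. Adamtsl1, a matrix protein also called punctin, had 171 and 200 counts (log2 ratio −0.36, interval −0.67 to −0.06) and Adamtsl2, a microfibril-associated protein, had 124 and 130 (−0.21, interval −0.57 to 0.16). Adamtsl4, which binds fibrillin, had 0 and 75 counts and was under the filter. Adamtsl3 and Adamtsl5 had 0 counts in both.

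**Figure D2:**
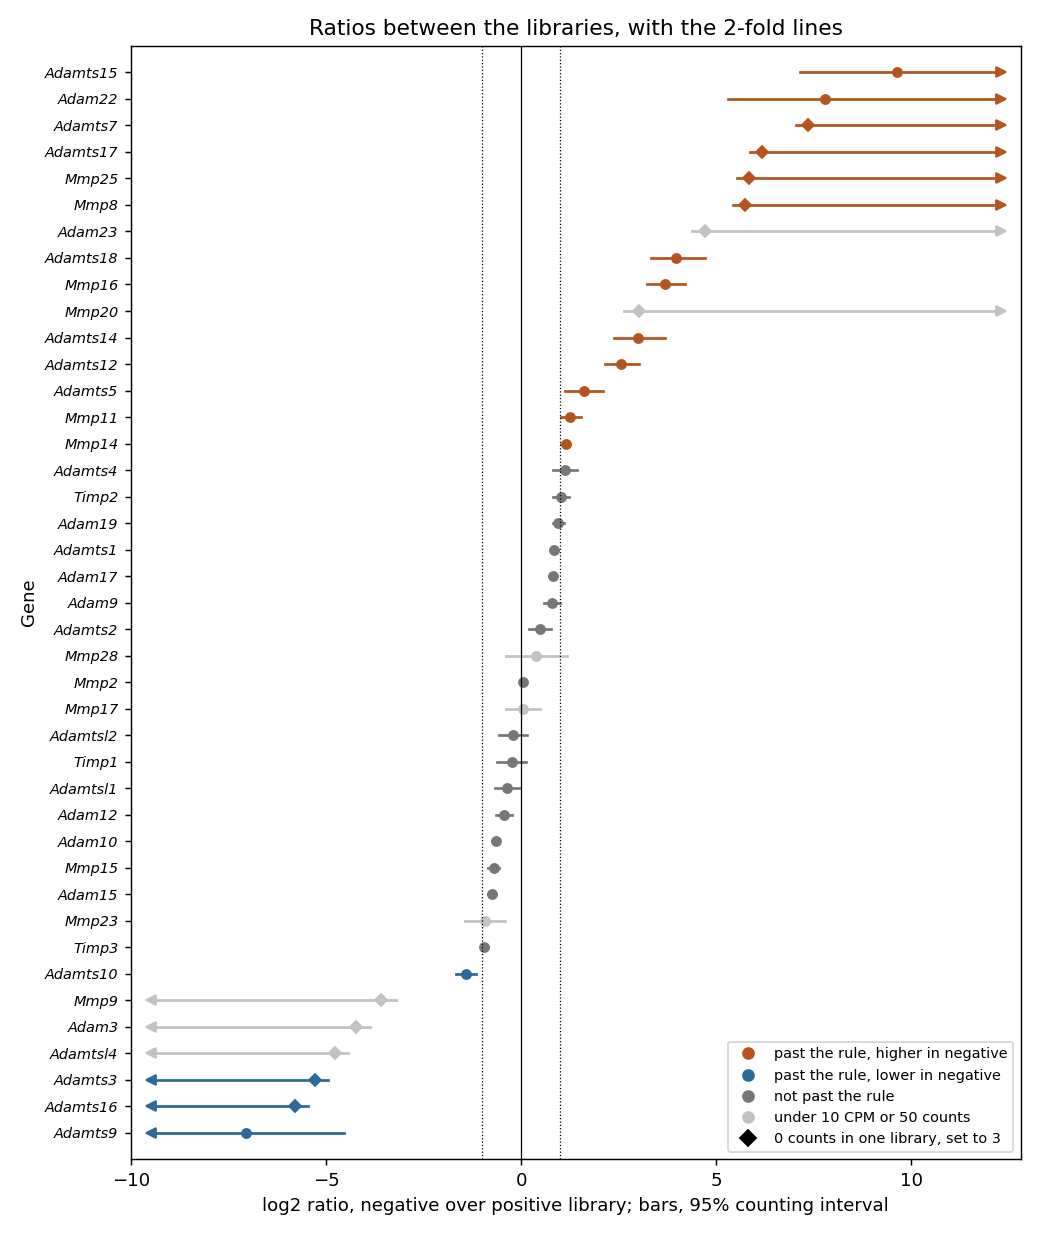
Log2 ratio of the negative over the positive library for the 41 members with at least 20 counts, with 95% counting intervals. Dotted lines are 2-fold, diamonds are genes with 0 counts in one library set to 3 counts, arrows mark intervals that run off the axis or have no end, and colours show whether a gene was past the rule (13 higher in the negative library, 4 lower).

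Among the MMPs, the membrane-type enzymes carried most of the difference. Mmp14, or MT1-MMP (chromosome 14, 54431612 to 54445364), which activates pro-MMP2 on the cell surface, had 2014 and 830 counts, or 193 and 87.8 CPM, and was past the rule with a 2.20-fold higher negative value (log2 ratio 1.14, interval 1.02 to 1.26). Mmp16, or MT3-MMP (chromosome 4, 17852893 to 18119145), had 571 and 40 counts and was 13.0-fold higher (log2 ratio 3.70, interval 3.23 to 4.20). Mmp25, a glycolipid-anchored enzyme also called leukolysin (chromosome 17, 23628311 to 23645277), had 189 and 0 counts. With the 0 set to 3 counts it was 57.2-fold higher (log2 ratio 5.84, interval from 5.53). Mmp15, or MT2-MMP, had 689 and 1017 counts and had its higher value in the positive library without passing the rule (log2 ratio −0.70, interval −0.84 to −0.56). Mmp17, the other glycolipid-anchored enzyme, was level at 97 and 86 counts and under the filter, and Mmp24 had 0 in both.

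The gelatinases, which cut denatured collagen and basement membrane collagen, were far apart in level. Mmp2 had 3866 and 3412 counts, or 371 and 361 CPM, with a log2 ratio of 0.04 (interval −0.03 to 0.11). With scaling by total counts or without the 100 most abundant genes the Mmp2 ratio was 0.12 and 0.13, outside that interval and still far from 2-fold. Mmp9, the gelatinase of myeloid cells, had 0 and 33 counts and was under the filter. Mmp11, or stromelysin 3 (chromosome 10, 75923222 to 75936496), a stromal protease, had 457 and 173 counts and was past the rule with a 2.40-fold higher negative value (log2 ratio 1.26, interval 1.01 to 1.52). Mmp8, shown above, was 53.3-fold higher with its 0 set to 3 counts (log2 ratio 5.74, interval from 5.42). Granulocyte markers went the other way, summing to 109 (negative) and 367 CPM (positive), with Elane, S100a8 and S100a9 at 0 in the negative library, and their part in the Mmp8 value was not tested. Mmp23 had 54 and 93 counts and Mmp28, or epilysin, 36 and 25, both under the filter. Mmp19 and Mmp21 had 0 counts in both.

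The 4 inhibitors did not move together. Timp3, a matrix-bound inhibitor that also blocks ADAM17, had 1521 and 2669 counts, or 146 and 282 CPM (log2 ratio −0.95, interval −1.04 to −0.86). Timp2, which links pro-MMP2 to MMP14, had 687 and 307 counts, or 66.0 and 32.5 CPM (log2 ratio 1.02, interval 0.83 to 1.22). Both intervals reached 2-fold without lying beyond it, in opposite directions. Timp1 had 115 and 124 counts (log2 ratio −0.25, interval −0.63 to 0.13) and Timp4 had 0 in both. Of the exon bases of Timp3, 21.3% are also exon of Syn3 on the other strand, a gene with 32 and 87 counts. How strand entered the counting is not given in the sources used here. Reads in the shared bases therefore cannot be assigned, and the same holds for 20.6% of the exon bases of Adam15 and 9.2% of those of Adamts9.

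Levels of different genes were compared per kb of exon. Mmp2 stood first in both libraries, at 110 CPM per kb (negative) and 107 (positive). In the negative library Adamts1 followed at 38.9 CPM per kb, then Mmp14 (32.5) and Adam10 (32.1), whose counting intervals overlapped, and Adam17 (29.1). In the positive library Adam10 followed Mmp2 at 50.3 CPM per kb, then Timp3 (34.7) and Adam15 (33.7), whose intervals overlapped, and Adamts1 (21.7) and Mmp15 (19.9), which also overlapped. Mmp14 stood at place 3 in the negative and place 9 in the positive library, and Timp3 at place 8 and place 3. In the negative library neighbours in the order from Adam15 (place 6) down to Mmp15 (place 13) had overlapping intervals. Members past the rule were mostly lower on this scale. In the negative library Adamts7 reached 8.21 CPM per kb, Adamts15 8.04 and Mmp8 6.97.

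**Figure D3:**
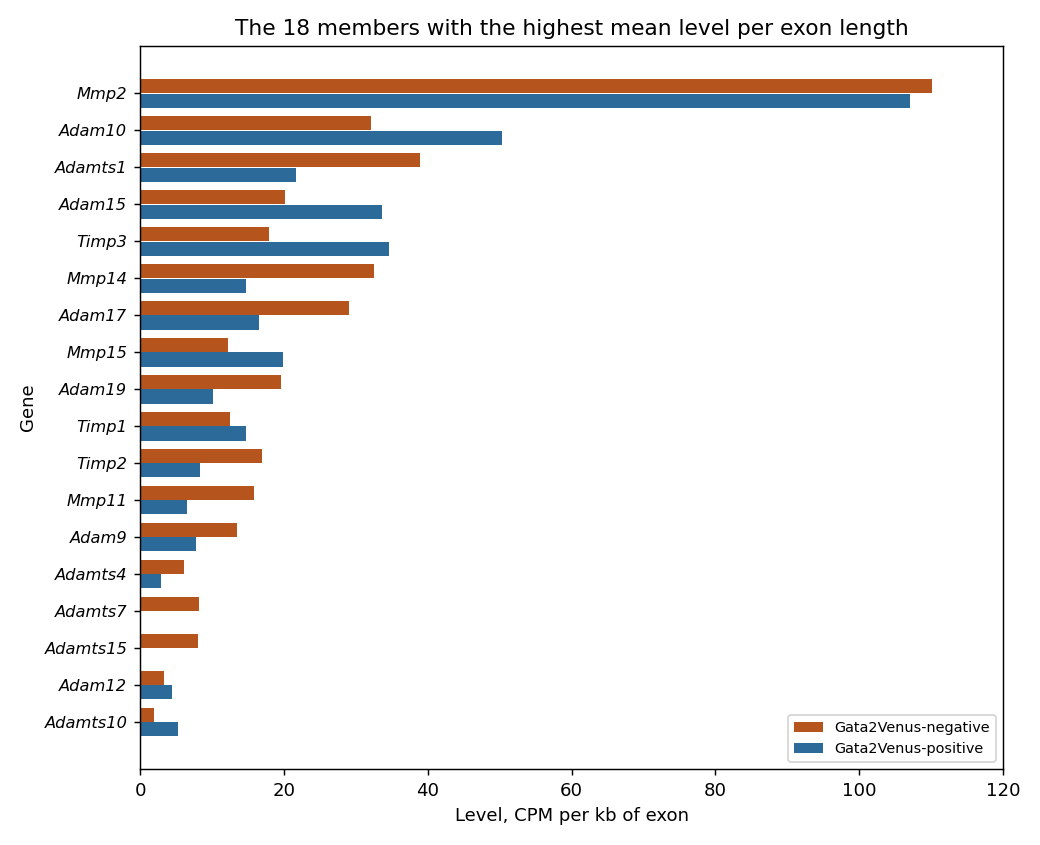
Level per exon length, in CPM per kb of exon from 0, for the 18 members with the highest mean of both libraries. Bars are the Gata2Venus-negative (orange) and Gata2Venus-positive (blue) library; Mmp2 is longest in both, Mmp14 is longer in the negative and Timp3 in the positive library.

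The share of members past the rule varied with the level of the genes. Of members whose higher library was at 10 to 20 CPM, 7 of 9 were past the rule and 5 of 9 had 3 or fewer counts in the other library, which was so for 30.1% of all genes at that level. Past the rule at that level were 26.1% of all genes on the higher and 26.0% on the lower side. At 20 to 50 CPM 6 of 10 members were past the rule, beside 17.0% of all genes on the higher and 18.5% on the lower side. At 50 to 100 CPM 3 of 5 members were past it, all higher in the negative library, beside 14.0% and 13.2% of all genes. Among these 3, Adamts15 and Adamts7, had 3 or fewer counts in the other library, which was so for 1.55% of all genes at that level. At 100 to 200 CPM 1 of 3 members, Mmp14, was past it, beside 10.9% and 7.37%. At 200 CPM and above 0 of 6 members were past it, beside 5.40% and 5.56% of all genes.

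The genes that control or surround these enzymes were read from lists of known partners. Their calls stand beside 15.2% higher and 14.9% lower among all 10381 genes past the filter. Of 7 tested regulators of ADAM10 and ADAM17, Rhbdf2, which carries ADAM17 to the cell surface, was lower in the negative library (77 and 231 counts, log2 ratio −1.72) and 6 were not past the rule. Among these, Rhbdf1 had 205 and 399 counts and Tspan14, a tetraspanin partner of ADAM10, had 1696 and 3026. Tspan17 (132 and 51 counts) and Tspan15 (383 and 288) had their higher value in the negative library. Of the 8 regulators with at least 20 counts, 2 had a log2 ratio above 0 and 6 below. Of 12 tested genes of protease activation and control 1 was higher (8.33%) and 2 were lower (16.7%). The urokinase gene Plau, which starts the plasmin cascade, had 7 and 469 counts (log2 ratio −6.20). Furin, which removes the propeptide of many ADAM and membrane-type MMP proteins, had 113 and 285 (−1.47), whereas the protease inhibitor Serpine2 had 1449 and 162 (3.02). Reck, a membrane-anchored MMP inhibitor, had 1507 and 794 counts and was not past the rule (0.79). Of 7 tested related metalloproteases Tll1, a tolloid protease, and Thsd4, an ADAMTS-like protein, were lower (135 and 374, 199 and 446 counts) and 5 were not past it, among them Bmp1 (832 and 884).

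Substrates were found on both sides. Of 21 tested matrix substrates Vcan, Col3a1 and Thbs2 (915 and 0 counts) were higher in the negative library, and Vwf and Thbs1 were lower. The other 16 were not past the rule. These shares, 14.3% higher and 9.52% lower, stand beside 15.2% and 14.9% of all genes past the filter. The median log2 ratio of the matrix list was −0.04. Of 32 tested membrane proteins known to be shed 6 were higher (18.75%) and 10 lower (31.25%). The higher ones were Vcam1 (225 and 0 counts), Ptprk (1339 and 226), Hbegf (394 and 83), Kit (2072 and 574), which was also used for the gate, Notch3 (415 and 105) and Cdh2 (1193 and 460). The lower ones were led by Jag1 (0 and 378 counts), Tnf (0 and 100), Procr (35 and 389), Dll1 (95 and 617), Notch4 (129 and 547) and Notch1 (557 and 1728). The median over the 34 with at least 20 counts was −0.60.

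**Figure D4:**
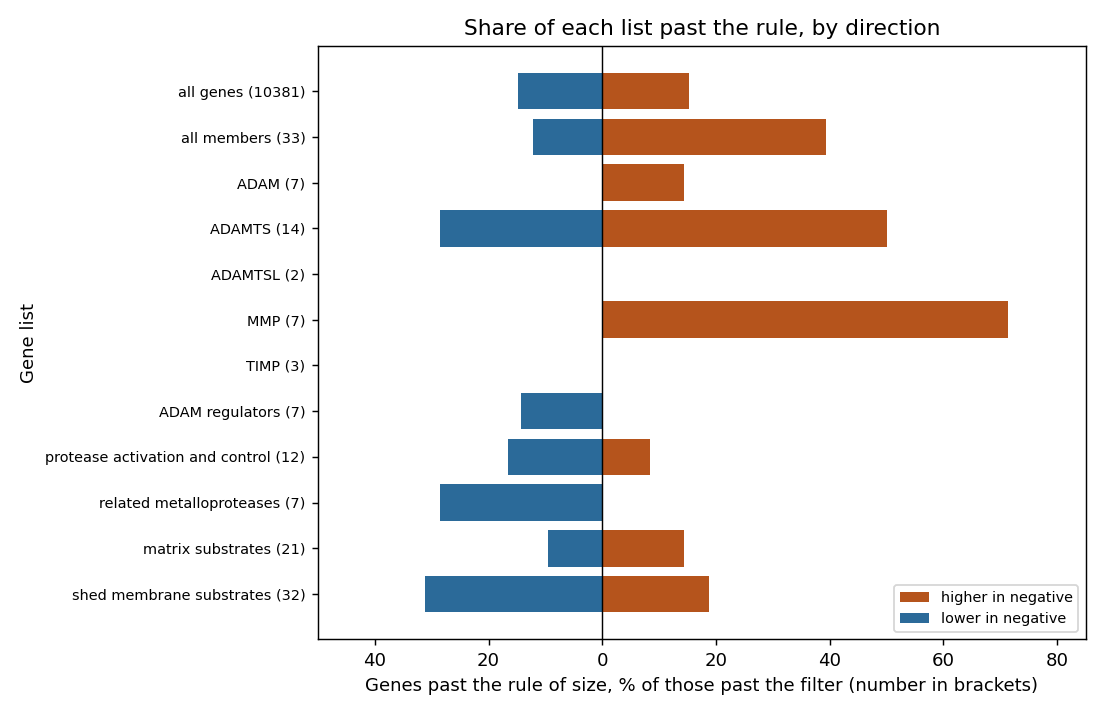
Share of each list past the rule of size, in percent of its genes past the filter (their number in brackets), to the right for genes higher and to the left for genes lower in the Gata2Venus-negative library. The 33 members reach 39.4% and 12.1%, and all 10381 genes 15.2% and 14.9%.

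Markers of the labelled and of other cell types differed between the libraries as well. Their calls, from short lists, stand beside 15.2% higher and 14.9% lower among all genes past the filter. Gata2 was at 13.5 and 70.2 CPM, the direction of the sort. Pecam1, which encodes CD31, was at 537 and 489 CPM. Kit was at 199 and 60.7 CPM and past the rule (log2 ratio 1.71), although both groups were gated on intermediate KIT. Summed over its list, the level of 10 endothelial markers was 2699 and 4854 CPM (0 higher and 5 lower of 10 tested). That of 10 haematopoietic progenitor markers was 783 and 1192 CPM (1 higher and 4 lower of 8), with Gfi1 at 0 in both libraries and Myb at 0 in the negative. Mesenchymal markers are of a cell type that a CD31 gate is meant to leave out. They summed to 8324 and 5570 CPM (4 higher and 0 lower of 11), with Twist1 at 0 in the positive library. Col3a1 (3249 and 1310 CPM) differed most within this sum. Of the 12 mesenchymal log2 ratios 9 were above 0, and those of Dcn, Lum and Col1a2 were below. Smooth muscle markers summed to 1163 and 359 CPM (5 higher and 0 lower of 6), with Myh11 at 0 in the positive library. Germ cell markers summed to 363 and 36.9 CPM (6 higher and 0 lower of 7), with Dazl and Dnd1 at 0 in the positive library. Macrophage markers summed to 230 and 1179 CPM (0 higher and 9 lower of 11), with Timd4 at 0 in the negative library, granulocyte markers to the values given above (0 higher and 3 lower of 3), and megakaryocyte markers to 141 and 437 CPM (0 higher and 6 lower of 9), with Gp1bb and Gp5 at 0 in the negative library. In the granulocyte list Ctsg, Ltf and Camp were also at 0 in both libraries. Epithelial markers summed to 493 and 374 CPM (2 higher and 0 lower of 7), with Pax8 at 0 in both libraries and Lhx1 at 0 in the negative. Erythroid markers summed to 325 and 260 CPM (0 higher and 3 lower of 6), and the sum and the calls went opposite ways. The sum was carried by the embryonic globins Hbb-y (143 and 85.9 CPM), Hbb-bh1 (103 and 55.8 CPM) and Hba-x (79.2 and 35.0 CPM), while Gata1 (0 and 351 counts), Klf1, Epor, Car1 and Hemgn were at 0 in the negative library. Neural markers summed to 24.0 and 72.5 CPM (0 higher and 1 lower of 2), with Sox10, Th, Tubb3 and Foxd3 at 0 in both libraries and Elavl4 and Stmn2 at 0 in the negative. The part of these cell types in the protease and inhibitor values was not tested. In such bulk libraries fewer cells of a type and less RNA per cell cannot be told apart.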

How the data were processed

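The authors processed reads with TopHat, Cufflinks and HTSeq on build mm10, per the submitters' processing notes. No version, annotation or strand setting is given in the sources used here. RNA was amplified as SMARTER cDNA, per the labels' protocols, with no molecular identifiers named, so PCR copies are counted again and intervals can be too narrow. The deposited values are whole-number counts per gene symbol. The 5 rows that name no gene (such as alignments that are not unique, 45.5% of the negative and 48.2% of the positive table) were left out.

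Counts were scaled with edgeR 4.0.16 TMM factors (1.03 and 0.974; R 4.3.3). Intervals are exact Poisson for levels and Clopper-Pearson for ratios (95%, scipy 1.17.1). A count of 0 was set to 3 for fold and log2 ratios, but not for their intervals. With 1 library per group no test was possible. Exon lengths and coordinates come from GENCODE vM21 (mm10), which held all 84 symbols, and promoter windows from RefSeq. Steps were tested on simulated data. Named were all members past the rule, all TIMP genes and the 4 members of highest mean CPM in each other family, then other members with at least 20 counts. Up to 6 partner genes past the rule in each direction were named by their interval's distance from equal expression. Partners inside the rule, and motifs, were picked after values were seen. Members, lists, rule and alternatives were chosen with earlier results of these data known. Alternatives covered scaling (also DESeq2 1.42.0), filters, fold limit, thinning and added counts.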

Additional observations from a re-analysis of the deposited data

How the results depend on the processing

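The 13 members higher and 4 lower in the negative library were past the rule under scaling by total counts, DESeq2 size factors, TMM without the 100 most abundant genes, thinning of the deeper library and 0.5 added counts, with no member's call changed under any of these. Under a filter of 1 CPM and 10 counts 15 of 41 members were higher and 7 lower, beside 17.9% and 19.3% of 12868 genes. Without a filter 15 of 43 were higher and 7 lower, beside 16.7% and 18.1% of 13853 genes. The filter of 50 CPM and 50 counts left 4 higher and 0 lower of 14 members, since fewer genes were tested, beside 11.1% and 9.63% of 5659 genes. Of the 33 members, a 4-fold limit left 10 and 3, beside 7.17% and 7.23% of 10381 genes, and a 2-fold ratio without the interval gave 15 and 4, beside 19.1% and 18.6%. Leaving out genes with 3 or fewer counts in one library, chosen after seeing the data, left 7 higher and 1 lower of 24, beside 12.5% and 11.8% of 9585 genes, and a median log2 ratio of 0.49 over 27 members. Otherwise the median was between 0.64 (members with at least 1 count) and 0.88 (without the 100 most abundant genes). The median of all genes shifted by 0.08 (log2) with total-count scaling and by 0.09 with the top-gene exclusion. The 8 members with at least 20 counts that stayed under the filter were all under 10 CPM in both libraries. Depth limits members at 0 counts, for which the floor was 0.288 CPM (negative) or 0.317 CPM (positive). Their counting interval reached higher, up to 0.354 CPM (negative) or 0.390 CPM (positive). No paired analysis was possible because each group has 1 library.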
